A study of Mus musculus with 6 samples.

Results

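The mouse hexokinases are the enzymes that add a phosphate to glucose once it has entered a cell. Their genes were taken by symbol from the deposited count table as Hk1, Hk2, Hk3 and Hkdc1, which are 4 of its 54532 genes. They were examined in gastrocnemius, a calf muscle made mainly of fast fibres. The mice were C57BL/6J, 3 months old, and had 0.2% doxycycline in their drinking water from the age of 4 weeks. The 3 libraries labelled transgenic came from mice with Mck cre plus Tg Glut1-Hk2-Pfkfb3, a transgene that names 3 genes of glucose use. The 3 control libraries came from mice carrying Mck cre without that transgene. Mck is the muscle creatine kinase gene, whose promoter is used to drive Cre recombinase in skeletal and heart muscle, so both groups carried the Cre driver and both received doxycycline. The labels do not say which element doxycycline controlled, or whether the transgene held mouse or other sequence, so its reads counted at mouse Hk2 only where the sequences match. Nor do they state whether each library is a separate animal; p-values then reflect only how far these libraries spread, which may be technical.

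Hexokinases turn glucose into glucose-6-phosphate, which stays in the cell and feeds glycolysis, glycogen and the pentose phosphate pathway. Hexokinase 2, from Hk2, is the insulin-responsive form of skeletal muscle, heart and fat, and can sit on the outer membrane of mitochondria. Hexokinase 1, from Hk1, is made in most tissues and is the main form of brain and red cells, while hexokinase 3, from Hk3, is found mostly in myeloid blood cells. Hkdc1 encodes a more recently described member of the family.

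The libraries labelled transgenic held between 19546456 and 23381569 counts and the control libraries between 21796564 and 24665024. After a filter on low counts 14973 genes were tested with edgeR's quasi-likelihood test, and Hk1, Hk2 and Hk3 were among them while Hkdc1 was not. Across the genes tested 194, or 1.30%, passed an adjusted p of 0.05. Of these 118, or 0.788% of the genes tested, were higher in transgenic libraries and 76 were lower. Of the 3 hexokinase genes tested 0 passed, and DESeq2 on the same counts, which called 7.09% of all genes, also called 0 of them, with adjusted p-values of 0.371 for Hk2, 0.491 for Hk1 and 0.990 for Hk3. Their unadjusted edgeR p-values were 0.139 for Hk2, 0.170 for Hk1 and 0.991 for Hk3. None of the 3 separated the groups without overlap, which 27.4% of all tested genes did. Scaling by library totals alone gave 205 genes higher and 54 lower, and moved the median log2 fold change of all tested genes to 0.12, against -0.03 in the TMM-scaled test.

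Control replicate 1 stood apart from the other libraries, with correlations of log2 CPM between 0.947 and 0.961 with each of them. Its B cell markers summed to 477 CPM (counts per 1e6 counts), against 6.90 to 56.5 CPM in the other 5 libraries, and its T and NK cell markers to 90.4 CPM, against 0.520 to 4.36 CPM. The sum of 12 skeletal muscle markers, Ckm and Acta1 among them, lay between 137678 and 177132 CPM in the libraries labelled transgenic and between 142031 and 206081 CPM in the control libraries. The sum of 7 slow-fibre markers lay between 772 and 1220 CPM in the transgenic libraries and between 990 and 1475 CPM in the control libraries. Where the call of a member, a transgene gene or a neighbouring or overlapping gene changed without control replicate 1, both values are given. The same holds for the list genes named by the rule stated below. For the most alike genes and the genes named outside that rule, values without this library are not given.

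The 4 coding sequences are long relatives of one another, which bears on whether reads can be told apart. In GENCODE M21 on GRCm38 the longest coding sequences have 945 codons in Hk1, 917 in Hk2, 922 in Hk3 and 915 in Hkdc1. In each of the 4 the first and second part are related, and the nucleotide identity between them was 61.7% in Hk1, 67.6% in Hk2, 66.0% in Hk3 and 64.3% in Hkdc1. Between members the identity ran from 63.8% for Hk3 with Hkdc1 to 72.1% for Hk1 with Hk2. The longest stretch that any pair shared base for base was 27 bases, in Hk1 and Hk2, and the shortest of the 6 longest stretches was 16 bases, in Hk3 and Hkdc1. The 2 longest are printed. Only exact matches between the longest coding sequences were searched for, so other stretches may be as hard to tell apart. Read length is not given in the sources used here.
Hk1 bases 2125 to 2151 and Hk2 bases 2044 to 2070 of the coding sequence: agcaatgcctgctacatggaggagatg
Hk1 bases 637 to 662 and Hkdc1 bases 1960 to 1985 of the coding sequence: gacacagtggggaccatgatgacctg

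**Figure D1:**
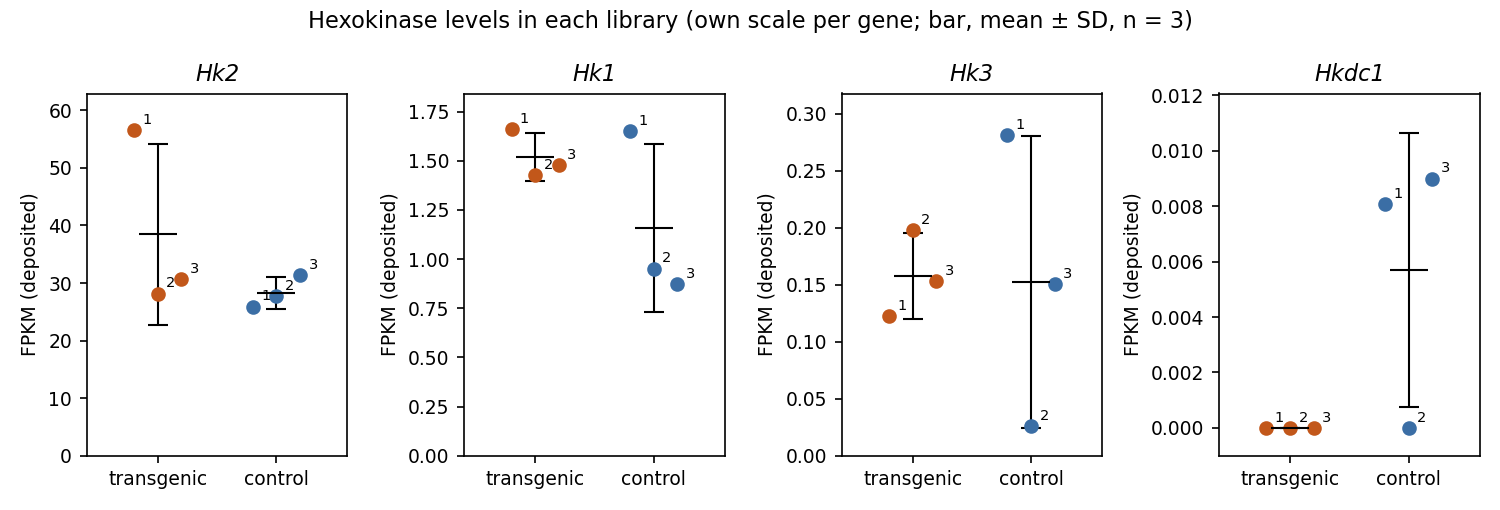
Level of each hexokinase gene in each library, in deposited FPKM on the y axis with a separate scale per gene; points are libraries numbered by replicate, horizontal bars are means and vertical bars are SD (n = 3 each). Hk2 stood at 56.6 FPKM in transgenic replicate 1 and between 25.9 and 31.4 FPKM elsewhere, and Hk1 in control replicate 1 lay among the transgenic libraries.

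Hk2 was the most abundant hexokinase transcript in every library. In FPKM, which divides by gene length and so lets genes be compared, Hk2 stood at 56.6, 28.2 and 30.6 in transgenic replicates 1, 2 and 3, against 25.9, 27.7 and 31.4 in control replicates 1, 2 and 3. Its level ranked 686th, 1301st and 1194th among all genes in the transgenic libraries and 1321st, 1516th and 1338th in the control libraries. In FPKM 1 library labelled transgenic was high and the other 2 lay within the range of the control libraries. By rank all 3 stood above the control libraries, but the closest ranks were 1301 and 1321. How many of all genes separate the groups by rank was not counted, so this separation has no background to be read against.

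In counts scaled to the library, Hk2 had 341, 168 and 182 CPM in the transgenic libraries, against 156, 165 and 187 CPM in the control libraries. The means were 230.3 ± 96.1 CPM in the transgenic libraries and 169 ± 16.1 CPM in the control libraries (SD, n = 3 each). The log2 fold change of these counts was 0.44 ± 0.27 (SE), with a 95% interval of -0.18 to 1.07 and an edgeR adjusted p of 0.381. On a linear scale this is 1.36-fold, and the interval reaches from 0.883-fold to 2.095-fold. Transgenic replicate 1 was 1.82 times the highest of the other 5 libraries. Without it the log2 fold change was 0.06 ± 0.13 with an interval of -0.26 to 0.38 (edgeR adjusted p = 0.842), a fold between 0.837 and 1.30. Counting error was small beside this spread: the smallest of the 6 Hk2 counts, 3467, carries a counting error of 1.70%, whereas the coefficient of variation over the 6 libraries was 35.1%.

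The other genes named in the transgene did not share the Hk2 pattern. Pfkfb3 makes the activator of phosphofructokinase, the enzyme of a later glycolytic step, and had 15.7, 63.0 and 72.1 FPKM in the transgenic libraries, against 76.0, 145 and 210 FPKM in the control libraries. The library with the highest Hk2 therefore had the lowest Pfkfb3. Slc2a1 encodes the glucose carrier GLUT1 and had 3.80, 2.74 and 2.31 FPKM in the transgenic libraries, against 3.64, 6.64 and 3.42 FPKM in the control libraries. Neither passed the test, with edgeR adjusted p-values of 0.196 for Pfkfb3 and 0.290 for Slc2a1. Since none of the 3 genes passed as higher, the groups are named here as the labels name them.

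Other signals were also highest in transgenic replicate 1, and their part in its Hk2 level was not tested. The 6 endothelial markers, Pecam1, Cdh5, Kdr, Tek, Emcn and Tie1, summed to 606, 300 and 328 CPM in the transgenic libraries, against 322, 226 and 271 CPM in the control libraries, and all 6 were highest in transgenic replicate 1. That sum was 1.85 times the highest of the other 5 libraries, close to the 1.82 times of Hk2. The smooth muscle markers reached 154 CPM in total there, with a range of 87.8 to 108 CPM in the rest, and 4 of 5 were highest there. Fibroblast markers reached 1288 CPM in total there and lay between 629 and 1120 CPM elsewhere, but only 2 of 5 were highest there. Fat markers reached 1115 CPM and lay between 376 and 903 CPM elsewhere, with 1 of 5 highest there. In bulk muscle, fewer or more cells of a type and less or more RNA per cell cannot be told apart.

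Some muscle fibre genes stood apart in the same library, and these were picked out after their values were seen. Myh1, the myosin heavy chain of type IIX fibres, reached 9413 CPM there and lay in a range of 2811 to 4090 CPM in the rest. Ppargc1a, the coactivator of mitochondrial biogenesis, was also highest there, but its height was not confined to that library. It had 86.5, 34.7 and 35.2 CPM in the transgenic libraries, against 16.1, 15.5 and 25.4 CPM in the control libraries. Its groups did not overlap, as in 27.4% of all tested genes (log2 fold change 1.46 ± 0.39, edgeR adjusted p = 0.109). Myh4, the myosin of the fastest, type IIB fibres, was lowest in transgenic replicate 1. It had 29055 CPM there and between 32689 and 60249 CPM elsewhere. The part of fibre composition in the Hk2 level was not tested either.

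**Figure D2:**
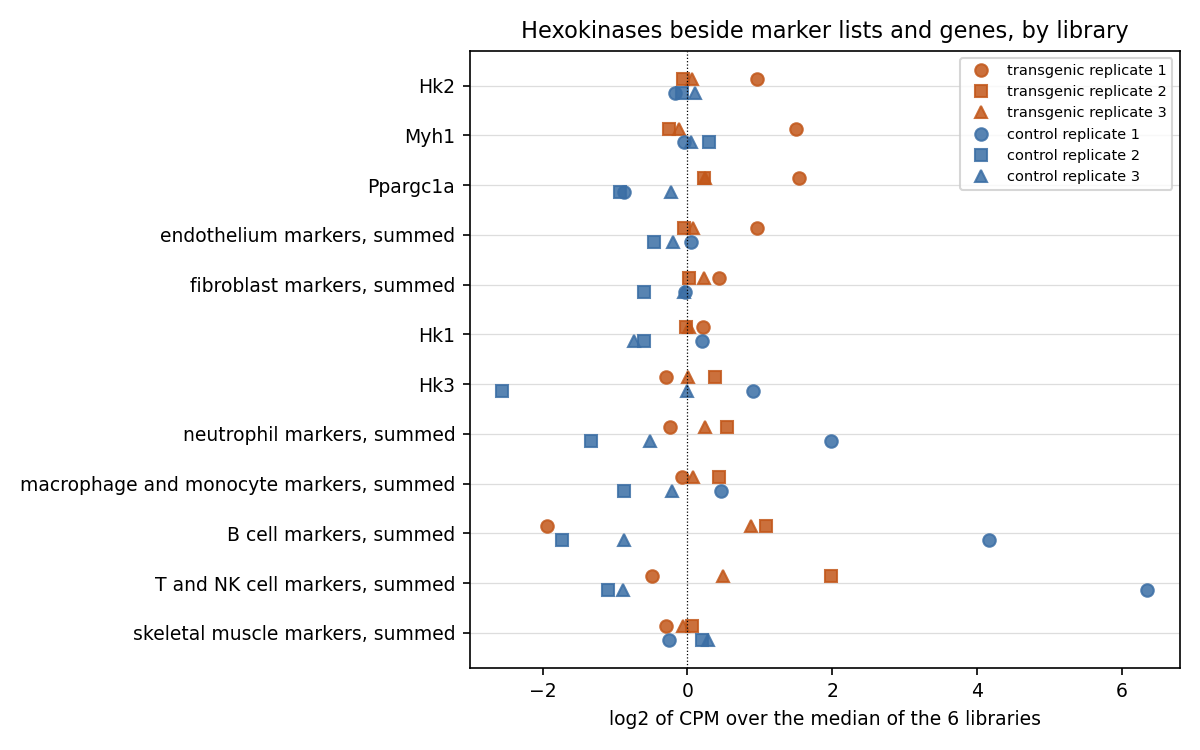
Each library's CPM for Hk2, Hk1, Hk3, Myh1, Ppargc1a and summed cell type markers, as log2 of its ratio to the median of the 6 libraries (x axis); orange points are transgenic libraries, blue points control libraries, and the shape gives the replicate. Transgenic replicate 1 was highest for Hk2, Myh1, Ppargc1a and the endothelial and fibroblast markers, and control replicate 1 was highest for Hk3 and for the neutrophil, B cell and T and NK cell markers.

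By the closeness of their profiles over the 6 libraries, the 5 protein-coding genes most like Hk2 among 12775 compared were Sox7, Esam, Lox, Got2 and Gpihbp1. The root-mean-square difference between their deviations of log2 CPM and those of Hk2 ran from 0.0647 for Sox7 to 0.0761 for Gpihbp1. Sox7 is a transcription factor of endothelial cells, Esam an adhesion molecule of endothelial tight junctions, and Gpihbp1 the capillary protein that carries lipoprotein lipase. Lox crosslinks collagen and Got2 is the mitochondrial aspartate aminotransferase. Got2 had 739.9 CPM in transgenic replicate 1, against 357 to 439 CPM in the other 5 libraries, and the same library was the highest for all 5 genes. The likeness describes 6 libraries and rests mainly on one of them.

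The Hk2 gene lies on chromosome 6 of GRCm38, from 82725025 to 82774454 on the minus strand (ENSMUSG00000000628), with 4 annotated transcripts and 5969 bases of exon. An antisense transcript, Gm17034, lies inside the gene but shares 0 exonic bases with it, and had 8, 2 and 0 counts in the transgenic libraries and 5, 2 and 1 in the control libraries. Neither of the nearest genes with a count on each side of Hk2 passed the test. Pole4, a DNA polymerase epsilon subunit, had a log2 fold change of -0.40 ± 0.12 (edgeR adjusted p = 0.139), and the noncoding gene Gm38843 was too low to test.

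The promoters of the 2 most abundant members are shown so that the base composition and motifs counted from them can be seen. Each sequence is the 250 bases before a RefSeq start on GRCm38.p6, 5′ to 3′ on the gene's own minus strand. Capitals mark matches to 6 motifs, read on both strands: the CCAAT box (CCAAT), the CACGTG E box, the core of the hypoxia response element (ACGTG), the short core of the cyclic AMP response element (TGACG), the GC box (GGGCGG) and the TATA box (TATAAA).
Hk2, chr6:82774455-82774704: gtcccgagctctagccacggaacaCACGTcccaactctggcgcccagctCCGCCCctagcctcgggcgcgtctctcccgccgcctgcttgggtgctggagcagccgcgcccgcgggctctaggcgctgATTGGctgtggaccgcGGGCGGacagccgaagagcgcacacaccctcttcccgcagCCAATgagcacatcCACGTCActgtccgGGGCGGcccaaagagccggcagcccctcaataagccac
Hk1 inner start, chr10:62340422-62340671: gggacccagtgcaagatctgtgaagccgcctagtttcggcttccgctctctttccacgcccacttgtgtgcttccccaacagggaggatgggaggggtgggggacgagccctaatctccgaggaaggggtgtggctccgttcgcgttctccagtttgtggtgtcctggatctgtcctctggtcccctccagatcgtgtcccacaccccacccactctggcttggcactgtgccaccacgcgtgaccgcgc
Hk1 outer start, chr10:62379909-62380158: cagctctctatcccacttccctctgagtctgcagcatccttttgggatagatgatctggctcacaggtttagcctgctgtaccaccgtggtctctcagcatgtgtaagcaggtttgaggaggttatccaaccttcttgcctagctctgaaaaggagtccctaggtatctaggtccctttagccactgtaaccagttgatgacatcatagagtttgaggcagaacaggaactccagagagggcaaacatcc

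The Hk2 window was 69.6% G and C with 25 CpG pairs, against medians of 52.4% and 6 pairs over 32851 RefSeq promoter windows of the same length. It held 2 CCAAT boxes, a motif found in 33.8% of those windows, and 3 GC boxes, found in 32.7%. It also held 2 hypoxia cores, found in 16.6%, and 1 cyclic AMP core, found in 17.8%, which overlaps one of the hypoxia cores in the run CACGTCA. The inner Hk1 start had 62.8% G and C with 14 CpG pairs, the outer one 49.6% with 1 pair, and neither held any of the 6 motifs. The CACGTG E box (6.02% of windows) and the TATA box (12.4%) were found in neither gene's windows. Gene-level counts do not separate the Hk1 starts. The Hk3 window held 1 hypoxia core and the Hkdc1 window none of the motifs.

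Hk1 was the second hexokinase in every library, far below Hk2. It had 1.66, 1.43 and 1.48 FPKM in the transgenic libraries, against 1.65, 0.951 and 0.871 FPKM in the control libraries. Control replicate 1 lay among the transgenic libraries, and the other two control libraries lay below all 3. Hk1 fell between the 28.2nd and the 38.2nd percentile of FPKM among tested genes, whereas Hk2 fell between the 89.9th and the 95.4th. The ratio of Hk2 to Hk1 in FPKM was 34.1, 19.7 and 20.7 in the transgenic libraries, against 15.7, 29.1 and 36.0 in the control libraries, so its ranges overlapped between the groups.

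The underlying Hk1 counts were 346, 251 and 313 in the transgenic libraries, against 340, 172 and 161 in the control libraries. The means were 13.0 ± 1.14 CPM in the transgenic libraries and 9.91 ± 3.72 CPM in the control libraries (SD, n = 3 each). The log2 fold change was 0.39 ± 0.26 (SE) with an interval of -0.21 to 0.99 and an edgeR adjusted p of 0.421, or 1.31-fold with an interval of 0.865 to 1.98. The side of the threshold rests on control replicate 1, which was 1.74 times the highest other control. Without that library Hk1 was higher in the transgenic libraries by 0.74 ± 0.15 on the log2 scale (interval 0.39 to 1.10, edgeR adjusted p = 0.0269), or 1.67-fold.

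That value stands against a changed background, because without control replicate 1 the same test called 1956 of all genes, or 13.1%, and 6.08% as higher. The lowest transgenic library was then 1.497 times the highest control library, and 26.8% of all tested genes had their 3 transgenic libraries above the 2 remaining controls. Markers of other cells in control replicate 1 were as follows. The macrophage and monocyte markers summed to 209, 299 and 232 CPM in the transgenic libraries, against 305, 120 and 191 CPM in control replicates 1, 2 and 3. In control replicate 1 the red cell markers summed to 83.7 CPM, against 45.3 to 76.7 CPM in the other 5 libraries, and the Schwann cell markers to 394 CPM, against 251 to 436 CPM. The part of any of these cells in the Hk1 level was not tested.

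**Figure D3:**
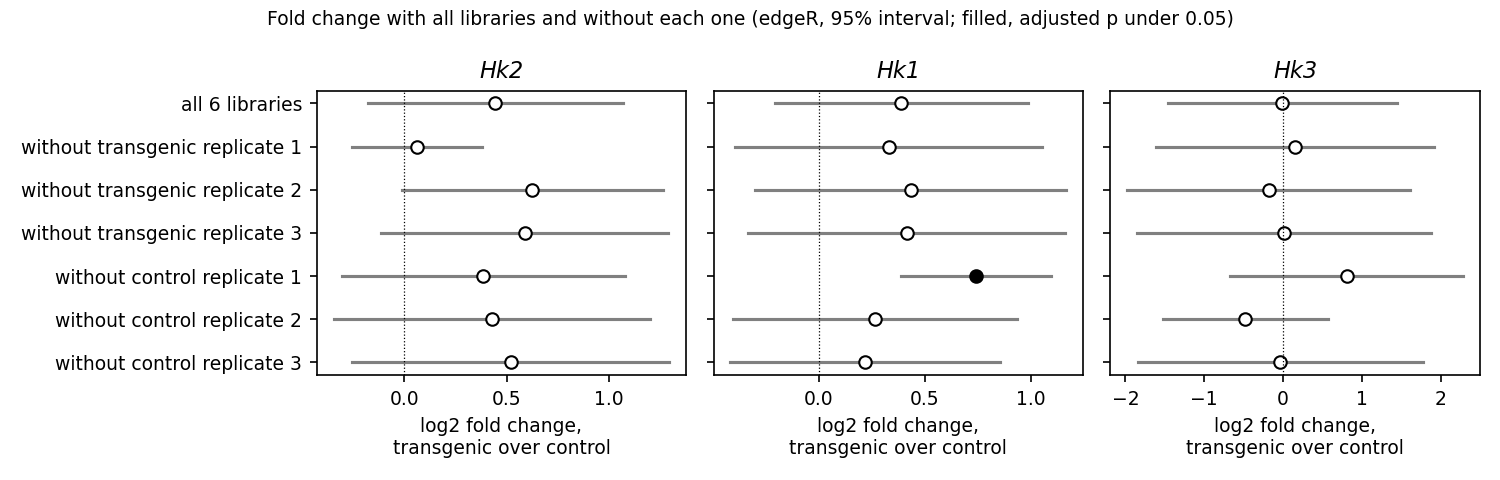
Log2 fold change of Hk2, Hk1 and Hk3, transgenic over control (x axis), with all 6 libraries and without each one (rows); points are edgeR estimates, lines their 95% intervals, and the filled point marks an adjusted p under 0.05. Hk2 stood at 0.06 without transgenic replicate 1, and Hk1 stood at 0.74 without control replicate 1.

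The 5 protein-coding genes with profiles most like that of Hk1 were Nkd2, Nacad, Wrnip1, Rabgap1l and Nbea. Their root-mean-square differences ran from 0.0809 for Nkd2 to 0.0961 for Nbea, somewhat wider than those of the genes most like Hk2. Nkd2 binds Dishevelled and dampens Wnt signalling, Wrnip1 binds the Werner helicase, Rabgap1l is a GTPase-activating protein for Rab proteins, and Nbea is neurobeachin, a large protein of membrane traffic in neurons. In all 5, control replicate 1 was above the other two controls. Wrnip1, for example, had 16.4, 13.8 and 13.9 CPM in the transgenic libraries, against 14.6, 8.60 and 9.31 CPM in the control libraries.

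Hk1 lies on chromosome 10, from 62268855 to 62379908 on the minus strand (ENSMUSG00000037012), with 20 annotated transcripts and 8532 bases of exon. The deposited values sum over these transcripts, so their separate levels were not measured here. The antisense gene Hk1os shares 157 exonic bases with it, and since the strand setting of the counts is not given, reads in that stretch could belong to either gene. Hk1os had 0, 1 and 2 counts in the transgenic libraries and 9, 0 and 2 in the control libraries, few beside the Hk1 counts. Hkdc1 lies on the same strand, and its 3′ end is 3229 bases upstream of Hk1. The nearest gene with a count on the other side, 37604 bases away, was Tspan15, a tetraspanin. Its log2 fold change was 0.55 ± 0.13 (edgeR adjusted p = 0.0847, 0.0452 without control replicate 1, and 0.0151 by DESeq2).

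Hk3 was detected at the edge of the measurement. Its counts were 11, 15 and 14 in the transgenic libraries, against 25, 2 and 12 in the control libraries. In FPKM these are 0.122, 0.197 and 0.153 in the transgenic libraries, against 0.281, 0.0256 and 0.150 in the control libraries. The transgenic libraries lay inside the range of the controls, whose highest and lowest values are both from that group. Pooled over libraries the counts were 40 in the transgenic group, with an exact Poisson interval of 28.6 to 54.5, and 39 in the control group, with one of 27.7 to 53.3; such intervals cover counting error only.

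The log2 fold change of Hk3 was -0.01 ± 0.62 (SE), with an interval of -1.46 to 1.44 and an edgeR adjusted p of 0.995; its sign turned under several settings, scaling by library totals alone among them. Without control replicate 1 it was 0.81 (adjusted p = 0.391). The interval with all libraries spans 0.364-fold to 2.71-fold, and a change within these bounds could not be told from none in these libraries. The neutrophil markers, cells in which hexokinase 3 is known, summed to 3.02, 5.24 and 4.25 CPM in the transgenic libraries, against 14.1, 1.42 and 2.49 CPM in the control libraries. The control library with the most Hk3 had the highest neutrophil sum and the one with the least Hk3 the lowest. This was not particular to neutrophils. The macrophage and monocyte, B cell, T and NK cell, endothelial, fibroblast and fat sums were likewise highest in control replicate 1 and lowest in control replicate 2 among the controls. Of the 10 neutrophil markers 9 were highest in control replicate 1, while Ly6g had 0 counts in all 6 libraries. The part of any of these cell types in the Hk3 level was not tested.

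The Hk3 gene lies on chromosome 13, from 55005985 to 55021385 on the minus strand (ENSMUSG00000025877). Its end overlaps that of the oppositely oriented Unc5a, a netrin receptor, by 34 bases, all exonic, so a few reads could be counted at either gene. Unc5a had a log2 fold change of -0.83 ± 0.26 (edgeR adjusted p = 0.147). The nearest other genes with a count were Tspan17 and Uimc1. Tspan17, another tetraspanin, lies 209209 bases away and stood at 0.54 ± 0.12 (edgeR adjusted p = 0.0845, 0.0393 without control replicate 1, and 0.0160 by DESeq2). Uimc1, a ubiquitin-binding protein of DNA repair, stood at 0.07 ± 0.11 (edgeR adjusted p = 0.750).

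Hkdc1 was at or below the floor of the measurement in every library. It had 0, 0 and 0 counts in the transgenic libraries and 1, 0 and 1 in the control libraries. A count of 3 in a library, about the 1-sided 95% limit that a count of 0 allows, corresponds to between 0.120 and 0.145 CPM, and no fold change is given. The gene lies on chromosome 10, from 62383137 to 62422491 on the minus strand (ENSMUSG00000020080). Its neighbour away from Hk1, Supv3l1, which encodes a mitochondrial RNA helicase, had a log2 fold change of -0.13 ± 0.17 (edgeR adjusted p = 0.696), and 0.03 under scaling by library totals alone.

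Hk2 made up nearly the whole family sum in both groups, and the shares of each member overlapped between them. In deposited FPKM, Hk2 supplied 96.9, 94.5 and 94.9% of the family sum in the transgenic libraries, against 93.0, 96.6 and 96.8% in the control libraries. Hk1 supplied 2.84, 4.79 and 4.58% in the transgenic libraries, against 5.93, 3.32 and 2.69% in the control libraries, and Hk3 between 0.0895 and 1.01% over all 6 libraries. The order Hk2, Hk1, Hk3, Hkdc1 held in every library. Hk2 exceeded Hk1 by at least 15.7 times in any library. Hk1 exceeded Hk3 by 13.6, 7.22 and 9.65 times in the transgenic libraries and by 5.87, 37.1 and 5.79 times in the control libraries. Hk3 and Hkdc1 were both under a count of 3 in control replicate 2, where their order lies within counting error.

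The shares averaged 95.5 ± 1.29% in the transgenic libraries and 95.5 ± 2.13% in the control libraries for Hk2, and 4.07 ± 1.07% in the transgenic libraries and 3.98 ± 1.72% in the control libraries for Hk1 (SD, n = 3 each). The family sum was 58.4, 29.8 and 32.3 FPKM in the transgenic libraries, against 27.8, 28.7 and 32.4 FPKM in the control libraries, with means of 40.1 ± 15.8 FPKM in the transgenic and 29.6 ± 2.44 FPKM in the control libraries. In 2-sided exact permutation tests of these 3 quantities the p-values were 1 for the Hk2 share, 0.9 for the Hk1 share and 0.3 for the sum, and after adjustment over the 3 they were 1, 1 and 0.9. The smallest p that 3 against 3 libraries allow is 0.1. The difference in the sum was 10.5 FPKM with all libraries and 1.39 FPKM without transgenic replicate 1.

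**Figure D4:**
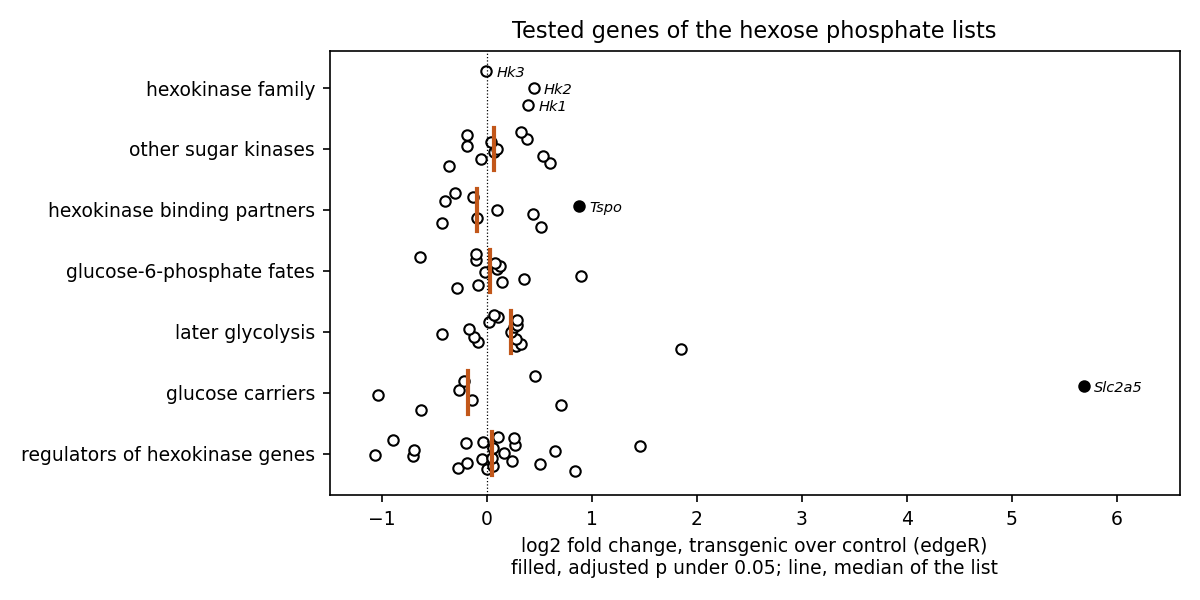
Log2 fold change, transgenic over control (x axis), of every tested gene in the hexokinase family and in 6 lists around it (rows); filled points passed an adjusted p of 0.05 and orange lines are list medians. Of the genes outside the family only Tspo and Slc2a5 are filled, and the fitted value of Slc2a5 rests on 1 control count.

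Around the family, 77 genes of 6 lists were tested and 2 passed in edgeR, against the 1.30% of all tested genes given above. DESeq2 called 12 of them, or 15.6%, against its 7.09% of all genes. The groups did not overlap in 21 of the 77, or 27.3%, close to the 27.4% of all tested genes. Among all 14973 genes tested, 3121 had an unadjusted edgeR p under 0.05, the background for the counts at that threshold below. Of 12 other sugar kinases 11 were tested and 0 passed in edgeR or DESeq2, 2 having an unadjusted edgeR p under 0.05, with a median log2 fold change of 0.06 where all tested genes had -0.03. The smallest p-values among them belonged to Adpgk, which phosphorylates glucose with ADP in place of ATP, and Fn3k, which phosphorylates sugar adducts on proteins. Adpgk averaged 20.1 ± 1.18 CPM in the transgenic libraries and 25.9 ± 1.66 CPM in the control libraries (log2 fold change -0.37 ± 0.12, edgeR adjusted p = 0.157). Fn3k averaged 12.0 ± 0.939 CPM in the transgenic libraries and 7.91 ± 1.94 CPM in the control libraries (0.60 ± 0.21, adjusted p = 0.177). Xylb, xylulokinase, fell under the filter.

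All 9 genes for proteins that bind hexokinases, or that act at the mitochondrial membrane beside them, were tested and 1 passed, with a median of -0.09. Tspo, a cholesterol-binding protein of the outer mitochondrial membrane, rose. It had 60.6, 62.0 and 53.5 CPM in the transgenic libraries, against 37.6, 31.3 and 27.0 CPM in the control libraries, with no overlap between the groups. Its log2 fold change was 0.88 ± 0.15 (SE, edgeR adjusted p = 0.0444). The call was narrow: the fold change stayed between 0.77 and 1.01 without each library in turn, while the adjusted p ran from 0.00919 without control replicate 1 to 0.175, and passed in 1 of these 6 fits. Vdac1, the mitochondrial pore to which hexokinases bind, had 1207, 1072 and 1017 CPM in the transgenic libraries, against 1245, 1593 and 1500 CPM in the control libraries (log2 fold change -0.40 ± 0.19, adjusted p = 0.276).

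Of 15 genes of glucose-6-phosphate and the pathways around it 12 were tested, 0 passed in edgeR and the median was 0.03. DESeq2 called 2 of them, Gpi1 and Pgm2l1, against its 7.09% of all genes. An unadjusted edgeR p under 0.05 was found for 2, against 3121 of all 14973 tested genes. Gpi1, the isomerase that takes glucose-6-phosphate on into glycolysis, had 1997, 1827 and 1738 CPM in the transgenic libraries, against 798, 1108 and 1090 CPM in the control libraries. The groups did not overlap, and the log2 fold change was 0.89 ± 0.21 (edgeR adjusted p = 0.0847, 0.0292 without control replicate 1, 0.0221 under scaling by library totals alone, and 1.63e-05 by DESeq2). Pgm2l1, which makes glucose 1,6-bisphosphate, averaged 23.9 ± 1.01 CPM in the transgenic libraries and 37.2 ± 7.0 CPM in the control libraries (-0.64 ± 0.16, adjusted p = 0.0953, and 0.0237 by DESeq2). G6pc, the glucose-6-phosphatase of liver, had at most 5 counts in any library, and G6pc2 and G6pd2 had 0 in all 6.

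Of 18 genes of later glycolysis 15 were tested and 0 passed in edgeR or DESeq2, 0 with an unadjusted edgeR p under 0.05, and the median was 0.23; Aldoa has 2 entries in the table and was left out. The smallest p-values belonged to Eno1 and Ldhb. Eno1, the widely expressed enolase, averaged 91.6 ± 8.13 CPM in the transgenic libraries and 75.6 ± 9.30 CPM in the control libraries (log2 fold change 0.28 ± 0.13, edgeR adjusted p = 0.278). Ldhb, the lactate dehydrogenase subunit of oxidative tissue, averaged 133 ± 36.0 CPM in the transgenic libraries and 180 ± 22.5 CPM in the control libraries (-0.43 ± 0.21, adjusted p = 0.282).

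All 8 glucose carriers were tested and 1 passed in edgeR, with a median of -0.18. DESeq2, which called 7.09% of all genes, called Slc2a5 as higher and Slc2a3 as lower. Slc2a3 had 3.39, 4.17 and 4.17 CPM in the transgenic libraries, against 8.30, 6.62 and 9.22 CPM in the control libraries (log2 fold change -1.04 ± 0.20, edgeR adjusted p = 0.0603). Slc2a5, which encodes the fructose carrier GLUT5, rose, with 20, 24 and 29 counts in the transgenic libraries, against 1, 0 and 0 in the control libraries. The ratio of pooled counts scaled for depth was 69.9, with a counting interval of 12.2 to 2798 (edgeR adjusted p = 0.0188). Its adjusted p ran from 0.0139 to 0.114 without each library in turn, and it passed only without transgenic replicate 1 or control replicate 1. Slc2a4, the insulin-responsive carrier GLUT4, had 530, 482 and 395 CPM in the transgenic libraries, against 399, 660 and 631 CPM in the control libraries, and these ranges overlapped.

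All 22 genes of insulin, hypoxia, energy and carbohydrate signalling that act on hexokinase genes or on glucose uptake were tested, and 0 passed in edgeR, with a median of 0.05. DESeq2 called 7 of them, 3 higher and 4 lower, against its 7.09% of all genes. Akt1, Mlxipl and Ppargc1a were higher, and Irs1, Irs2, Myc and Tbc1d1 lower. An unadjusted edgeR p under 0.05 was found for 8 of the 22, against 3121 of all 14973 tested genes. The smallest p-values belonged to Akt1, a kinase of insulin signalling, and Irs2, an insulin receptor substrate. Akt1 had 142, 115 and 115 CPM in the transgenic libraries, against 62.4, 82.0 and 63.5 CPM in the control libraries (log2 fold change 0.84 ± 0.15, edgeR adjusted p = 0.0518, 0.0272 without control replicate 1, 0.0483 under RLE scaling, 0.0274 under library totals alone, and 0.000160 by DESeq2). Irs2 had 37.4, 37.3 and 53.8 CPM in the transgenic libraries, against 77.9, 117 and 73.8 CPM in the control libraries (-1.06 ± 0.23, adjusted p = 0.0724, 0.0259 without control replicate 1, and 0.000920 by DESeq2). In both genes the groups did not overlap, as in 10 of the 22 genes of this list and 27.4% of all tested genes. Hif1a and Epas1 encode hypoxia-inducible factor subunits, whose core motif occurs in the Hk2 window printed above. Hif1a averaged 25.05 ± 2.57 CPM in the transgenic libraries and 25.8 ± 1.45 CPM in the control libraries. Epas1 had 292, 202 and 226 CPM in the transgenic libraries, against 161, 167 and 182 CPM in the control libraries. Its groups did not overlap (log2 fold change 0.50 ± 0.16, edgeR adjusted p = 0.146). The part of either gene in the Hk2 level was not tested.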

How the data were processed

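RNA of 6 gastrocnemius libraries, 3 labelled transgenic and 3 control, was made into NEBNext Ultra libraries from 3 µg of RNA each, per the labels' protocols. HISAT2 2.0.5, featureCounts 1.5.0-p3 and build GRCm38 are named in the submitters' processing notes. Neither the annotation release nor the read length or strand setting is given in the sources used here. Reads of overlapping genes may be shared or lost. Raw counts, whole numbers for each Ensembl ID, and FPKM were deposited by the authors in separate tables; FPKM values were used to compare genes per length. Coordinates and exon lengths of the 4 members were checked against GENCODE M21 and were equal. Promoter sequences are from RefSeq, which matched all 4 symbols.

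Counts were tested in R 4.3.3 with edgeR 4.0.16, using TMM scaling, filterByExpr with a minimum count of 10 and the quasi-likelihood test. Tests were 2-sided, with Benjamini-Hochberg adjustment over 14973 genes and a threshold of 0.05. CPM uses TMM library sizes, and errors are SDs unless given as SE or written after a log2 fold change, where they are SEs. Library totals ran from 19546456 to 24665024 counts. Intervals from counts have a confidence level of 95% and cover counting error only. The test was also run on simulated data, where most genes given a 1.5-fold or 2-fold change did not pass and some unchanged genes did. A gene that did not pass may therefore still differ. Coding sequences were aligned with Biopython 1.88, and permutation tests used scipy 1.17.1. Alternatives used DESeq2 1.42.0 and limma 3.58.1, with log2 FPKM at pseudocounts of 1 and 0.1.

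Groups came from the labelled genotypes. The members and the 6 pathway and 12 marker lists were chosen with earlier results of these data known. By rule the text names the members, the other transgene genes, neighbouring and overlapping genes, the 5 most alike genes of each member averaging at least 1 CPM, and of each list up to 4 genes past the threshold or else the 2 with the smallest p. Neighbouring genes are the nearest on each side that do not overlap the member and have at least 1 count, so closer genes without counts were passed over. Myh1, Myh4, Ppargc1a, Vdac1, Slc2a4, Xylb, G6pc, G6pc2, G6pd2, Slc2a3 and Hif1a are named outside that rule, after their values were seen. So are Epas1, Irs1, Mlxipl, Myc and Tbc1d1. A few listed genes were left out of the lists and are not reported here.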

Additional observations from a re-analysis of the deposited data

How the results depend on the processing

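The count of genes past the threshold, 194 with all libraries in edgeR, was 124 with no filter on low counts, 1061 by DESeq2, 96 and 98 by limma on log2(FPKM + 1) and log2(FPKM + 0.1), and 211, 259 and 144 under RLE scaling, scaling by library totals alone and limma-voom. Without each library in turn it ran from 0 to 1956: 54, 1 and 1 without transgenic replicates 1, 2 and 3, and 1956, 3 and 0 without control replicates 1, 2 and 3. Where edgeR called 0, 2116 genes had an unadjusted p under 0.05, and no other tool was run without that library. With the replicate number as a block 5 genes passed, and the block gave Hk2 0.37, Hk1 0.44 and Hk3 0.089 on the log2 scale, with none past the threshold. Same-numbered libraries deviated with correlations of -0.0243, -0.168 and 0.156, so the numbers were not taken to pair them, and not every library correlated best with its own number.

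Hk2 kept its direction and stayed short of the threshold in all 14 alternatives, from 0.06 to 0.63 on the log2 scale. Hk1 did so in 13, from 0.22 to 0.49, and passed in 1, at 0.74 without control replicate 1, where 2 controls entered; the cause was not tested. Hk3, at -0.01, turned sign in 10, with 0.12 under scaling by library totals alone, 0.0087 with no filter, 0.035 by DESeq2, 0.46 by limma-voom, 0.012 and 0.16 by limma at the higher and lower pseudocount, and -0.48 to 0.81 without each library in turn; the cause was not tested. The group difference in the Hk2 share of family FPKM turned sign in 4 fits without a library, ranging from -1.23 to 0.670 percentage points, and that in the Hk1 share in 4, from -0.555 to 1.07. The family sum kept its direction throughout, from 1.39 to 15.7 FPKM without each library. Hkdc1 could be followed only under other scalings and without each library, where its counts of 0 or 1 gave differences in mean CPM from -0.0439 to -0.0209. For genes named beside the members by rule, other than the most alike ones, the same alternatives were added after the data were seen. Supv3l1 turned to 0.027 under scaling by library totals alone, Tspo passed in 4 of 14 alternatives and Slc2a5 in 8. Depth limits Hk3, whose smallest count carries a counting error of 70.7%, and Hkdc1, but not Hk2.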
